A study of Mus musculus with 15 samples.

Results

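The proteasome subunits are described here in the ventricles of mice in which CELF2 was induced for up to 7 d. The genes were chosen by name: every gene of the deposited table whose symbol begins with Psma, Psmb, Psmc, Psmd, Psme, Psmf or Psmg, without the immunoproteasome genes Psmb8, Psmb9 and Psmb10. This gave 40 of the 16199 genes of the table. They comprise 7 subunits of the 20S alpha ring, 7 of the 20S beta ring, 6 ATPases and 10 other subunits of the 19S particle, 5 activators or inhibitors of the core, 4 assembly chaperones, and Psmc3ip. Psmc3ip carries the name of an ATPase it was found to bind but encodes a meiotic recombination factor, so it belongs by symbol alone. Psmg1, Psmg2 and Psmb11 appear in the table under the older symbols Dscr2, Tnfsf5ip1 and 5830406J20Rik and so fall outside the choice by name.

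The 26S proteasome degrades proteins marked with ubiquitin chains. Its barrel-shaped 20S core has outer rings of alpha subunits that gate the entry and inner rings of beta subunits, of which Psmb5, Psmb6 and Psmb7 carry the chymotrypsin-like, caspase-like and trypsin-like active sites. The 19S particle caps the core: its ATPases (Psmc genes) unfold the substrate, and its non-ATPase subunits (Psmd genes) bind and remove ubiquitin. In heart muscle the proteasome removes damaged and short-lived proteins, including proteins of the contractile apparatus. The mRNAs of the subunits are known to be raised together by the transcription factor NRF1 (Nfe2l1) when proteasome activity is limiting.

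The 15 hearts came from FVB mice of 14 to 16 weeks, 3 in each of 5 groups, and each library is 1 animal. The mice of the 12 h, 24 h, 72 h and 7 d groups carried MHCrtTA, in which the Myh6 promoter of heart muscle cells drives the doxycycline-dependent activator, and TRECUGBP2, a doxycycline-inducible FLAG-tagged human CELF2. They ate food with 2 g/kg doxycycline for the time that names the group. The animal list that accompanied the work has another dose. The 3 control mice carried MHCrtTA alone and were fed doxycycline for 72 h. Every comparison with control therefore uses the same 3 hearts, and except at 72 h the induced mice also differ from control mice in how long they were fed doxycycline. In addition, a Celf1 cassette is named in the labels of the induced mice, at odds with their genotype and titles. Values are in RPKM, read counts scaled to the length of the coding sequence and to the mapped reads of the library. The depth of the libraries is unknown, since no read totals were used here, and precision is given by the spread between hearts.

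Celf2, listed as Cugbp2, stood at 8.54 to 11.3 RPKM in control hearts and at 84.5 to 192 RPKM at 12 h, rising to 261 to 359 RPKM at 7 d. The summed level of 5 heart muscle cell markers was 22950 to 31000 RPKM in all hearts, but within it Actc1 was higher at 7 d than in control hearts by 0.63 (log2, adjusted p = 0.00037) and Myh6 was lower (-0.36, adjusted p = 0.026), and at 7 d against 12 h Actc1 was higher and Myh6, Tnni3 and Tnnt2 lower. Of 5 lymphocyte markers, 4 averaged under 1 RPKM. The sum of 3 adipocyte markers was 11.3 to 18.1 RPKM in control hearts, 11.6 to 15.6 RPKM at 12 h and 5.85 to 7.47 RPKM at 7 d, and that of 5 macrophage markers 59.6 to 65.8 RPKM in control hearts and 43.5 to 57.3 RPKM at 7 d. The sum of 4 smooth muscle markers was 96.5 to 151 RPKM in control hearts, 72.8 to 179 RPKM at 12 h and 60.7 to 140 RPKM at 7 d, with a median log2 change of -0.59 against control and -0.66 against 12 h and none of the 4 called. None of the markers of these 3 types was at 0 in every heart. Their part in the results at 7 d was not tested. A code in the sample titles divides the hearts into 3 sets, called runs A, B and C here, and what it stands for is not given. Run A holds 1 heart of each group and another of 72 h. The remaining hearts of control, 12 h and 24 h make up run B, and those of 72 h and 7 d run C. The number of genes listed at 0 was 1707 to 1977 in run A, 1718 to 1961 in run B and 1463 to 1551 in run C. Y-linked mRNA (Ddx3y, Eif2s3y and Uty) was near 0 in 2 control hearts, all 3 hearts at 12 h and 1 at 24 h, and present in the other 9. In whole ventricle, fewer cells of a type and less RNA per cell cannot be told apart.

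The subunit mRNAs were abundant and even. Their means over the 15 hearts had a median of 60.5 RPKM, against 8.75 RPKM over the 10557 genes that averaged at least 1 RPKM and were tested, and all 40 passed that filter. The 14 core subunits lay within 2.58-fold of each other, from Psma5, an alpha ring subunit, at 58.5 RPKM to the catalytic subunit Psmb7 at 151 RPKM. The median was 74.3 RPKM in the alpha ring and 103 RPKM in the beta ring, where Psmb5 was lowest at 80.9 RPKM. Among the 19S ATPases the median was 59.8 RPKM, with Psmc3 highest at 116 RPKM and Psmc4 lowest at 51.8 RPKM. Among the other 19S subunits the median was 46.7 RPKM, with Psmd7 highest at 63.2 RPKM and Psmd14, the deubiquitinase that cleaves chains off the substrate, lowest at 23.7 RPKM.

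The genes that act on the core from outside were less even. The interferon-inducible activator subunit Psme1 had a mean of 143 RPKM, close to the highest core subunits, and its partner Psme2 71.9 RPKM. Psme4, which encodes the activator PA200, had a mean of 27.2 RPKM and Psmf1, which encodes the core inhibitor PI31, 9.55 RPKM, so the 5 genes spanned 15.0-fold. The assembly chaperones had the lowest median of the roles, 7.71 RPKM. They ran from Psmg3, which helps to build the alpha ring, at 5.86 RPKM to Psmd9, which helps to build the ATPase base, at 13.7 RPKM. Psmf1 lay within that range. The plot of levels by role shows this order.

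**Figure D1:**
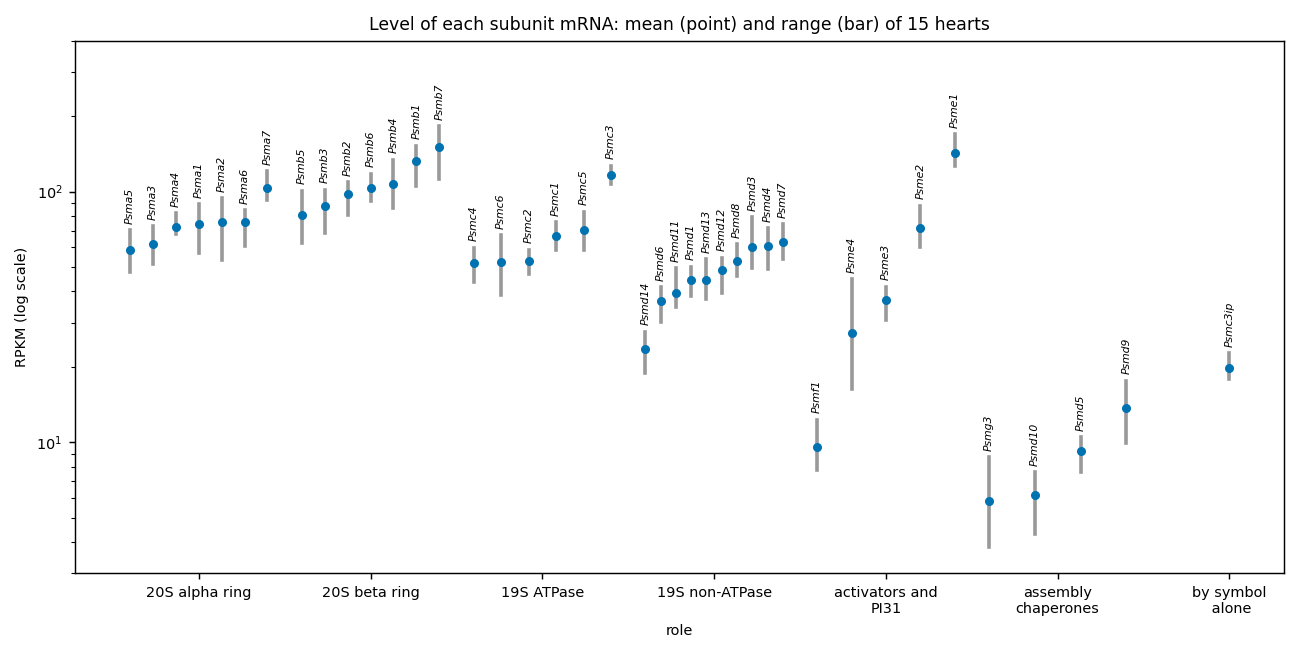
Level of the 40 mRNAs in RPKM on a log axis, grouped by role; points are means of the 15 hearts and bars run from the lowest to the highest heart. The 14 core subunits lie between 58.5 and 151 RPKM on average, and the 4 assembly chaperones between 5.86 and 13.7 RPKM.

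Replicate hearts of a group differed little in these mRNAs. The SD of log2(RPKM + 0.5) within groups had a median of 0.12 over the 40 genes. Over the 7096 genes that averaged 5 RPKM or more, as all 40 did, it was 0.18. It was smallest in Psma4 at 0.05, and largest in Psme4 at 0.32. Fold changes below are on the same log2(RPKM + 0.5) scale, so those of the low chaperone genes are slightly understated.

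The first question was whether CELF2 induction changed the proteasome genes against control. None of the 40 was called at any of the 4 times (limma across all 10557 genes, Benjamini-Hochberg adjusted p under 0.05 to be called). Psmg1, outside the 40 by its older symbol Dscr2, was called lower at 7 d (log2 change -0.54) and is described at the end. Over all genes tested, the share called was 0.388% for the 12 h hearts, 0.0947% for 24 h, 0.597% for 72 h and 9.99% for 7 d. At an unadjusted p under 0.05 there were 6 of the 40 at 12 h (15.0%, against 12.3% of all genes), 1 at 24 h (2.50% against 9.21%), 5 at 72 h (12.5% against 13.7%) and 6 at 7 d (15.0% against 23.9%). From the earliest time to the latest, the median log2 change of the 40 was -0.12, -0.07, -0.02 and -0.04, beside medians over all genes of -0.10, -0.10, -0.08 and 0.03. Other settings of the same tool called between 0 and 10 of the 40 lower and up to 4 higher at 7 d, the most with weights on the libraries, whose estimation did not converge and under which 2553 of all genes were called higher and 1839 lower.

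The 95% intervals show how closely each change was measured, given the spread between hearts. At 7 d, the 95% interval of the change lay within 1.5-fold in either direction for 39 of the 40 genes, against 57.1% of all genes tested. The exception was Psme4. The lowest mean was 5.86 RPKM among the 40 and 1.00 RPKM among all genes tested, so these shares are not matched for level. For the 3 catalytic subunits the change at 7 d was 0.07 for Psmb5 (95% interval -0.25 to 0.38), 0.06 for Psmb6 (-0.14 to 0.27) and 0.25 for Psmb7 (-0.04 to 0.55). The Psmb7 value was 0.41 without control replicate 1 (adjusted p = 0.078), which had 177 RPKM against 127 and 128 RPKM in the other control hearts. That heart is the only control of run A, so without it the controls are all of run B. Within run A, Psmb7 was 0.05 higher (log2) in the 7 d heart than in the control heart. Over the 13 alternatives its change ran from 0.05 to 0.41. At 72 h, the intervals of 33 of the 40 lay within 1.5-fold, against 63.6% of all genes. These intervals are from the fit without run or Y-linked mRNA and do not cover differences that go with either. Over the 13 alternatives the change at 7 d ran from -0.47 to -0.07 in Psma1, from -0.45 to -0.14 in Psmd10 and from -1.02 to -0.56 in Psme4.

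**Figure D2:**
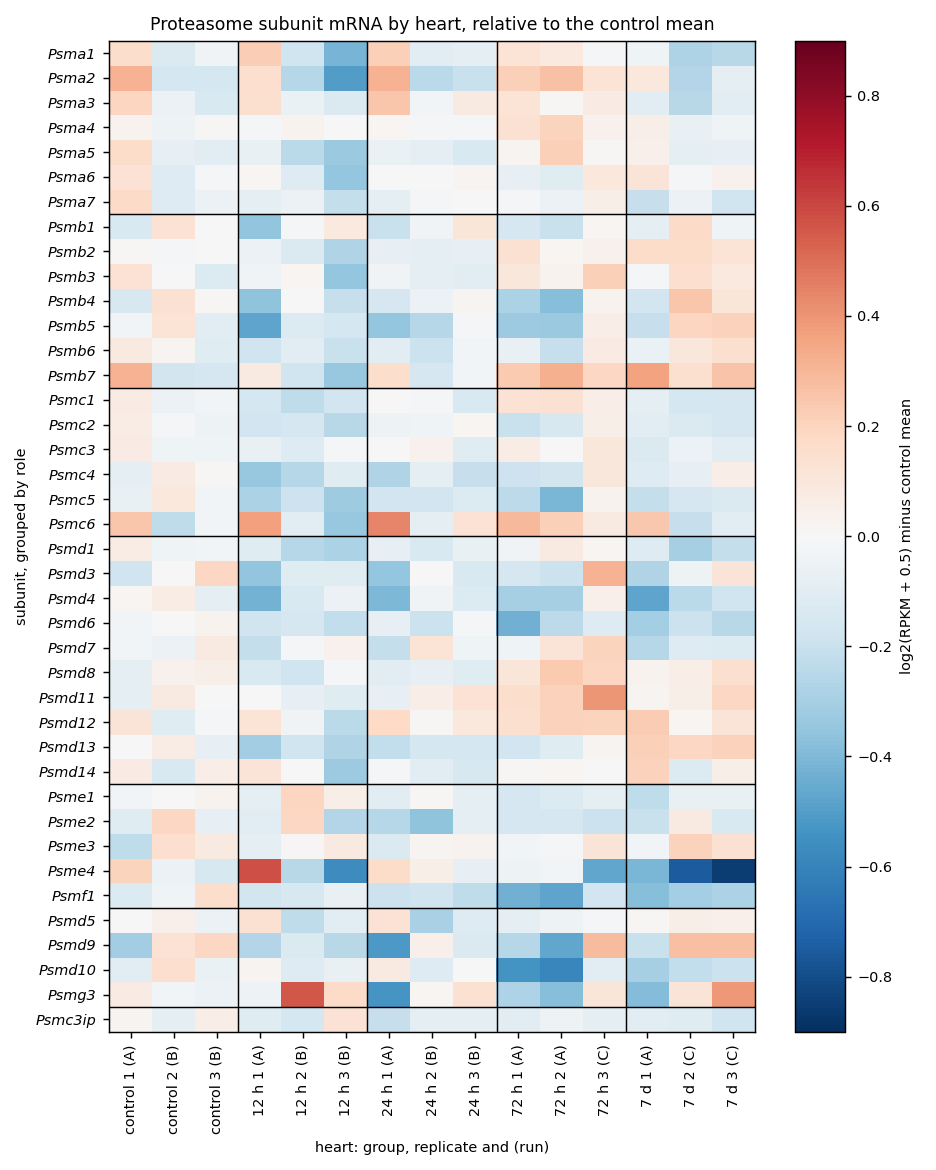
Heat map of the 40 mRNAs (rows, grouped by role) in the 15 hearts (columns, with the run in brackets), coloured by log2(RPKM + 0.5) minus the control mean. Most cells are pale, Psme4 is darkest in replicates 2 and 3 of 7 d, and several rows such as Psma1, Psma2 and Psmc6 are higher in run A hearts than in the run B hearts of the same group.

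By role, the changes at 7 d were small and differed in direction. All 7 beta ring subunits had a positive log2 change, with a median of 0.07, and 6 of 7 alpha ring subunits a negative one, with a median of -0.08. All 6 ATPases were negative, from -0.16 in Psmc5 to -0.02 in Psmc6, with a median of -0.11. The 10 other 19S subunits were split evenly, 5 positive and 5 negative, from -0.30 in Psmd4 to 0.20 in Psmd13. None of these changes was called. Most hearts at 7 d are of run C and most control hearts of run B, and run differences went with GC content, as described below. Coding GC content was 48.6% to 57.7% in the beta ring and 42.2% to 50.5% in the alpha ring. Psmb4 and Psmb5 were higher in run C than in run A by 0.36 and 0.40 (log2). Within run A, the 7 d heart was below the control heart in Psmb3 (86.7 against 95.7 RPKM) and Psmb4 (99.8 against 102 RPKM). The same held for Psmb5 (75.5 against 85.7 RPKM) and Psmb6 (102 against 113 RPKM). It was above the control heart in Psmb1 (128 against 124 RPKM), Psmb2 (109 against 98.4 RPKM) and Psmb7 (183 against 177 RPKM). In the alpha ring it was above in Psma4 alone (73.87 against 72.85 RPKM). The part of run in the directions of the rings was not tested.

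Another reading counts the genes whose 3 hearts at 7 d all lay to the same side of all 3 control hearts. Of the 40, 13 were lower in this way (32.5%, against 13.4% of all genes) and 2 were higher (5.0%, against 18.3%). The 13 were 4 of the 6 ATPases (Psmc1, Psmc2, Psmc3 and Psmc5), 4 of the 10 other 19S subunits (Psmd1, Psmd4, Psmd6 and Psmd7), Psme1, Psme4, Psmf1, the chaperone Psmd10, and Psmc3ip. No core subunit was among them. The 2 that were higher were the core subunit Psmb2 and the 19S subunit Psmd13. Their individual tests did not pass, and the hearts at 7 d differ from control hearts in run and in Y-linked mRNA as well as in CELF2.

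The summed level of the 16 genes of the 19S particle was 925, 911 and 919 RPKM in the control hearts and 862, 860 and 891 RPKM at 7 d, without overlap. It was lower still in the 12 h hearts (830, 831 and 825 RPKM), and the 24 h hearts had 865, 891 and 874 RPKM. The 72 h hearts had 890, 901 and 991 RPKM and so lay on both sides of the control hearts. Over all genes tested, the median log2 change from control was -0.10 for the 12 h hearts and -0.10 for the 24 h hearts. It was -0.08 for the 72 h hearts and 0.03 for the 7 d hearts. The sum of the 14 core subunits was 1391, 1279 and 1241 RPKM in control hearts and 1310, 1347 and 1334 RPKM at 7 d, so these overlapped. The ratio of the 19S sum to the core sum was 0.639 to 0.668 at 7 d, 0.665 to 0.740 in control hearts and 0.671 to 0.741 at the other times. Within run A it was 0.658 in the heart at 7 d, 0.665 in the control heart and 0.676, 0.671, 0.679 and 0.697 in the others. These sums are weighted to the abundant subunits and are given as a description, with no test. They leave out the 19S subunits Adrm1 and Shfm1, whose symbols fall outside the choice by name. Shfm1 stood at 294, 159 and 161 RPKM in control hearts and at 240, 173 and 225 RPKM at 7 d. With Adrm1 and Shfm1 added, the 19S sums of control and 7 d hearts would overlap, so the separation depends on the choice by name.

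Psme4 had the largest change of any member against control. PA200, its product, is a single-chain nuclear activator that caps the core in place of the 19S particle. Its level was 34.3, 28.8 and 27.0 RPKM in the control hearts, 44.8, 25.1 and 20.01 RPKM at 12 h, 33.5, 31.1 and 28.3 RPKM at 24 h, 29.0, 29.3 and 21.4 RPKM at 72 h, and 22.4, 17.6 and 16.3 RPKM at 7 d. The 3 hearts at 7 d were below all 3 control hearts, whereas the 12 h hearts spread on both sides of them. The log2 change at 7 d was -0.67 (SE 0.23, 95% interval -1.16 to -0.18, limma adjusted p = 0.083), so the difference between a mean of 30.0 ± 3.83 RPKM in control hearts and 18.8 ± 3.19 RPKM at 7 d (SD, n = 3) did not pass the test over all genes. In run A alone the log2 difference in Psme4 between the heart at 7 d and the control heart was -0.61. Psme4 was also lower in run B than in run A by 0.48 (log2) across groups and lower in run C by 0.41, and with run as a covariate the 7 d change was -0.72 (adjusted p = 0.027). It was called without replicate 1 of 12 h (adjusted p = 0.013) and without replicate 3 of 12 h (adjusted p = 0.045), the 2 hearts at the ends of the 12 h spread, and with only the control and 7 d hearts in the fit (adjusted p = 0.023).

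Psmf1 had the smallest p of the 40 genes at 7 d. The control hearts had 10.03, 10.7 and 12.3 RPKM, the hearts at 24 h 9.56, 9.64 and 9.29 RPKM, those at 72 h 8.01, 7.76 and 9.71 RPKM, and those at 7 d 8.31, 8.80 and 8.93 RPKM. From 24 h on every induced heart lay below every control heart. The log2 change of Psmf1 was -0.32 at 7 d (SE 0.11, limma adjusted p = 0.070), after -0.36 at 72 h (SE 0.11, adjusted p = 0.16) and -0.20 at 24 h (adjusted p = 0.59). None of these passed. With median-ratio, upper-quartile or quantile scaling, or with run as a covariate, Psmf1 was called lower at 7 d, and without replicate 3 of 72 h it was called at 72 h (-0.45, adjusted p = 0.043).

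Among the 19S subunits, Psmd6 had the lowest p at 7 d and Psmd4 the lowest change. Psmd6 is a lid subunit, and stood at 40.03, 40.7 and 41.7 RPKM in control hearts and 32.9, 35.7 and 34.2 RPKM at 7 d, a log2 change of -0.25 (SE 0.09, adjusted p = 0.11). Its hearts at 12 h, 36.0, 36.6 and 35.0 RPKM, were also below all control hearts. Psmd4, a receptor for ubiquitin chains, stood at 68.7, 71.4 and 64.2 RPKM in control hearts and 48.9, 57.5 and 60.1 RPKM at 7 d (-0.30, SE 0.13, adjusted p = 0.20). Its lowest hearts at 12 h, 24 h and 7 d, with 50.5, 51.3 and 48.9 RPKM, were all of run A.

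At the other times the lowest adjusted p among the 40 was 0.23 at 12 h, for Psmd13, 0.53 at 24 h, again for Psmd13, and 0.16 at 72 h, for Psmf1. At 12 h, 36 of the 40 had a negative change, 4 of the 6 ATPases had an unadjusted p under 0.05, and the lowest change was -0.26 in Psmc5. Of all 10557 genes tested, 3167 had a positive change at 12 h and 12.3% an unadjusted p under 0.05. The median over all genes was also negative at 12 h, and with median-ratio scaling, which brought it to 0.00, the median of the 40 was -0.02. At 72 h the chaperone Psmd10 (gankyrin) had the lowest change, -0.41 (SE 0.13, adjusted p = 0.19). Its hearts at 72 h stood at 4.51, 4.33 and 6.31 RPKM, and the control hearts at 6.30, 7.59 and 6.49 RPKM, so that the groups overlapped in 1 heart.

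**Figure D3:**
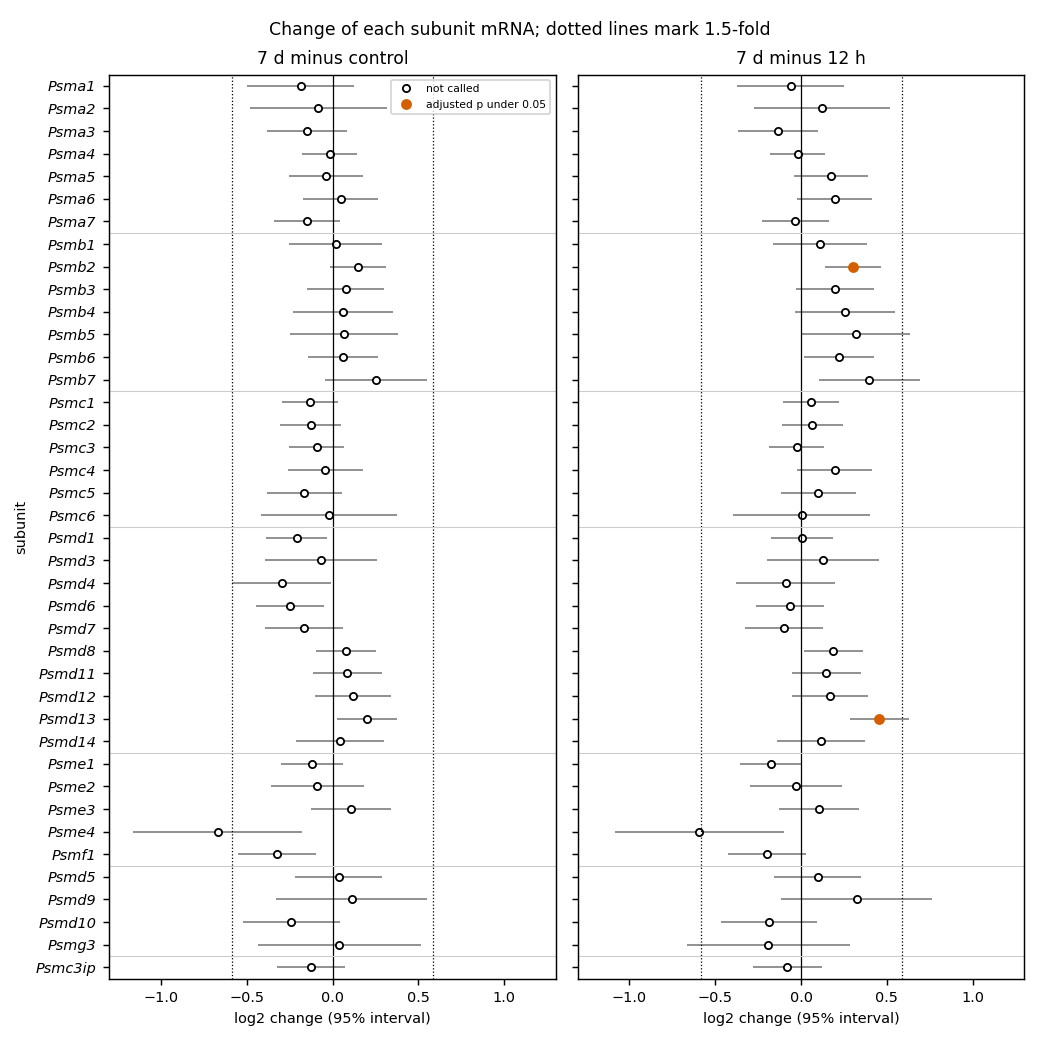
Log2 change (horizontal axis) of each of the 40 mRNAs with its 95% interval, for 7 d minus control on the left and 7 d minus 12 h on the right; filled points passed an adjusted p of 0.05 and dotted lines mark 1.5-fold. On the left 39 of 40 intervals lie inside the dotted lines and no point is filled, and on the right Psmd13 and Psmb2 are filled.

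The second question was whether late induction differed from early induction. Between 12 h and 7 d, 2 of the 40 genes were called higher (5.0%, against 11.8% of all genes) and 0 lower (against 3.88%), with 7 of the 40 at an unadjusted p under 0.05 (17.5%, against 30.5%). The genes were Psmd13 and Psmb2. The median log2 change of the 40 was 0.10 and that of all genes 0.13. With the 3 other scalings, which bring the median of all genes to between -0.01 and 0.02, the median of the 40 turned negative, between -0.05 and -0.02.

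Psmd13 encodes a lid subunit of the 19S particle that joins the ring of scaffold subunits around the deubiquitinase. The gene lies on chromosome 7, chr7:148067867-148084542 on the plus strand of mm9. Its level was 46.3, 48.5 and 43.9 RPKM in the control hearts, 37.2, 40.8 and 38.1 RPKM at 12 h, 39.6, 41.3 and 41.4 RPKM at 24 h, 41.0, 42.8 and 47.0 RPKM at 72 h, and 53.8, 52.6 and 53.3 RPKM at 7 d. The hearts at 12 h and 24 h were all below the control hearts and those at 7 d all above them. From a mean of 38.7 ± 1.88 RPKM at 12 h (SD, n = 3) it was higher at 7 d, at 53.2 ± 0.59 RPKM, a log2 change of 0.46 (SE 0.08, 95% interval 0.28 to 0.63, limma adjusted p = 0.0022). Neither change from control was called, with -0.25 for the 12 h hearts (adjusted p = 0.23) and 0.20 for the 7 d hearts (adjusted p = 0.14).

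The difference between 12 h and 7 d in Psmd13 was as large within run A, where the heart at 7 d exceeded that at 12 h by 0.53 (log2), and it was called with run as a covariate (0.44, adjusted p = 0.0085). It was also called after leaving out any 1 of the 15 hearts, with adjusted p between 0.0014 and 0.012, and with each of the 3 other scalings, at 0.31 to 0.33. All 12 h hearts lacked Y-linked mRNA and all 7 d hearts had it, so that the times and this difference cannot be told apart in the pair of groups. In the fit with Y-linked mRNA as a covariate the change was 0.49 (adjusted p = 0.064), and adding run as well gave 0.58 (adjusted p = 0.14). Over all genes, 158 and 34 were called higher in these fits, against 1241 in the main fit. Of the groups with both kinds of heart, control had 43.9 RPKM in the heart with Y-linked mRNA and 46.3 and 48.5 RPKM in those without, whereas 24 h had 41.3 and 41.4 RPKM in those with it and 39.6 RPKM in the heart without. Exons of Psmd13 overlap those of Sirt3 on the opposite strand. The RPKM values count coding sequence, and whether the counting kept to 1 strand is not given. Sirt3 itself changed by 0.27 between 12 h and 7 d (adjusted p = 0.27).

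**Figure D4:**
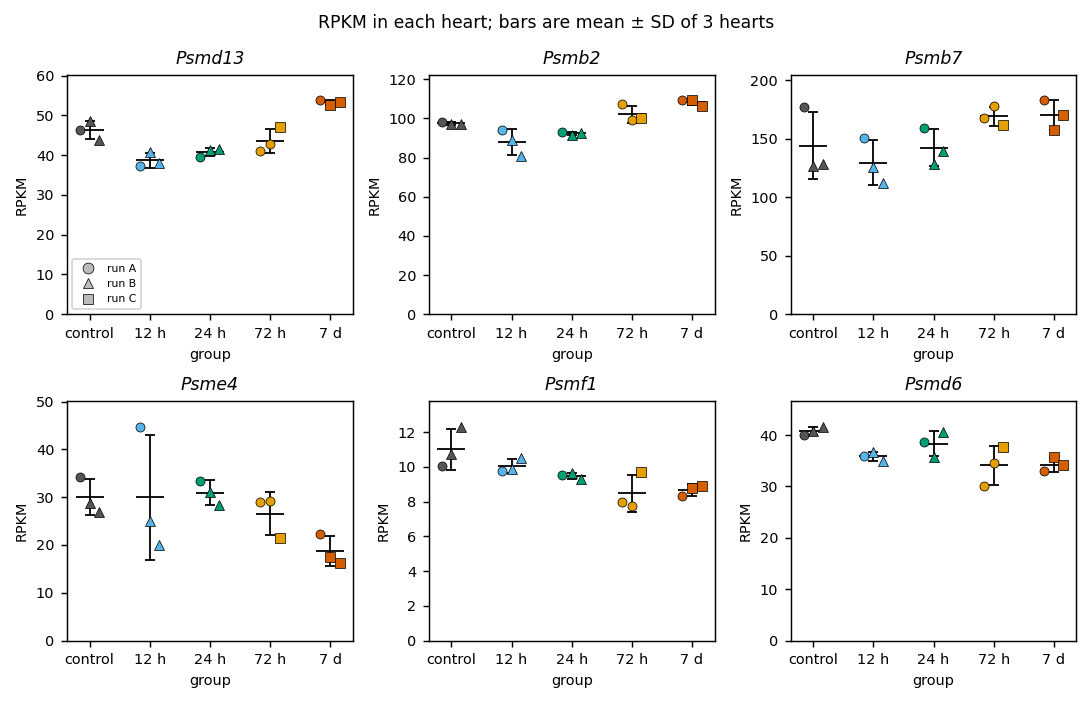
RPKM of Psmd13, Psmb2, Psmb7, Psme4, Psmf1 and Psmd6 in each heart, with a symbol for each run (circle A, triangle B, square C) and bars for the mean ± SD of 3 hearts. Psmd13 is at 52.6 to 53.8 RPKM in the 7 d hearts and at 37.2 to 40.8 RPKM in the 12 h hearts, and Psme4 is at 16.3 to 22.4 RPKM at 7 d against 27.0 to 34.3 RPKM in control hearts.

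Psmb2 encodes a beta ring subunit without an active site. The gene is at chr4:126354874-126386958 on the plus strand of mm9. Its level was 98.4, 96.9 and 97.4 RPKM in control hearts, 94.1, 88.9 and 81.0 RPKM at 12 h, 92.8, 91.7 and 92.8 RPKM at 24 h, 107, 99.0 and 100 RPKM at 72 h, and 109, 109 and 106 RPKM at 7 d. The 12 h and 24 h hearts were below, and the 72 h and 7 d hearts above, all control hearts. Psmb2 was higher at 7 d than at 12 h by 0.30 on the log2 scale (SE 0.08, 95% interval 0.14 to 0.46, adjusted p = 0.017). This call was less firm than that of Psmd13. It was lost without replicate 3 of 12 h (0.24, adjusted p = 0.064), without replicate 2 of 7 d (0.29, adjusted p = 0.066), with each of the 3 other scalings (0.15 to 0.18, adjusted p 0.19 to 0.32) with only the 12 h and 7 d hearts in the fit (adjusted p = 0.10), and with Y-linked mRNA as a covariate, alone (0.30, adjusted p = 0.20) or with run (0.19, adjusted p = 0.63). Within run A the heart at 7 d exceeded that at 12 h by 0.21 (log2).

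The other 6 subunits of the beta ring did not pass the test between 12 h and 7 d. All 7 subunits had a positive change, with a median of 0.25, from 0.11 in Psmb1 to 0.40 in Psmb7, beside the median of 0.13 over all genes. Psmb7, the subunit with the trypsin-like site, stood at 151, 126 and 112 RPKM at 12 h and 183, 157 and 170 RPKM at 7 d, without overlap (0.40, SE 0.14, adjusted p = 0.066). It was called without control replicate 1 (adjusted p = 0.034) or without replicate 1 of 12 h (0.51, adjusted p = 0.022), and the difference was 0.28 within run A and 0.25 with run as a covariate (adjusted p = 0.11). Psmb7 was 0.35 lower (log2) in run B than in run A, and 2 of the 3 hearts at 12 h are of run B and none at 7 d. Its values at 7 d overlapped those of the control hearts, 177, 127 and 128 RPKM, of which the first is of run A. The alpha ring had a median of -0.02 in the same comparison and the ATPases 0.06.

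The members also differed between runs, in numbers to be read against those of all genes, which differed between runs more often than between any time and control. This contrast was chosen after the values were seen and comes from the fit with group and run together. Between runs B and A, 6 of the 40 were higher (15.0%, against 22.3% of all genes) and 9 were lower (22.5%, against 13.0%). Between runs C and A, 6 were higher (15.0%, against 29.0%) and 2 lower (5.0%, against 4.93%). The shares of higher genes were thus below those of all genes in both contrasts, and the share of lower genes was above it between runs B and A alone, with no test of these differences. The lower genes in run B were the core subunits Psma1, Psma2, Psma3, Psma5 and Psmb7, the ATPase Psmc6, the lid subunit Psmd12, the chaperone Psmd5 and Psme4, by 0.17 to 0.51 on the log2 scale. The higher ones were Psmb1, Psmb4, Psmd3, Psmd4, Psmd9 and Psme3.

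Psmc6, an ATPase, shows how run and group cross. Its run A hearts stood at 58.7 RPKM in control, 63.7 RPKM at 12 h, 67.1 RPKM at 24 h, 60.5 and 57.3 RPKM at 72 h and 58.3 RPKM at 7 d. Its run B hearts stood at 42.1 and 48.6 RPKM in control, 46.1 and 38.9 RPKM at 12 h and 46.7 and 54.2 RPKM at 24 h. Every run A heart was above every run B heart, while the group means at 7 d and in control were 49.1 ± 8.22 and 49.8 ± 8.33 RPKM (SD, n = 3). The log2 change at 7 d was -0.02 (95% interval -0.42 to 0.38).

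The run differences went with base composition. Over the 40 genes, the Pearson correlation between the GC content of the longest annotated coding sequence and the log2 difference was 0.68 for run B minus run A and 0.75 for run C minus run A. Over the 9369 tested genes with an annotated coding sequence (88.7%) it was 0.66 and 0.71. Psmc6 had the lowest GC content of the 40, 41.8%, and Psme4 42.6%, and both were lower in runs B and C. Psmd9, with the highest, 58.7%, and Psmd3, with 57.3%, were higher in both. The genes are not independent and share the same libraries, so these values have no p. The GC content of Psmd13 was 50.7% and that of Psmb2 50.3%, near the median of 50.03% of the 40.

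**Figure D5:**
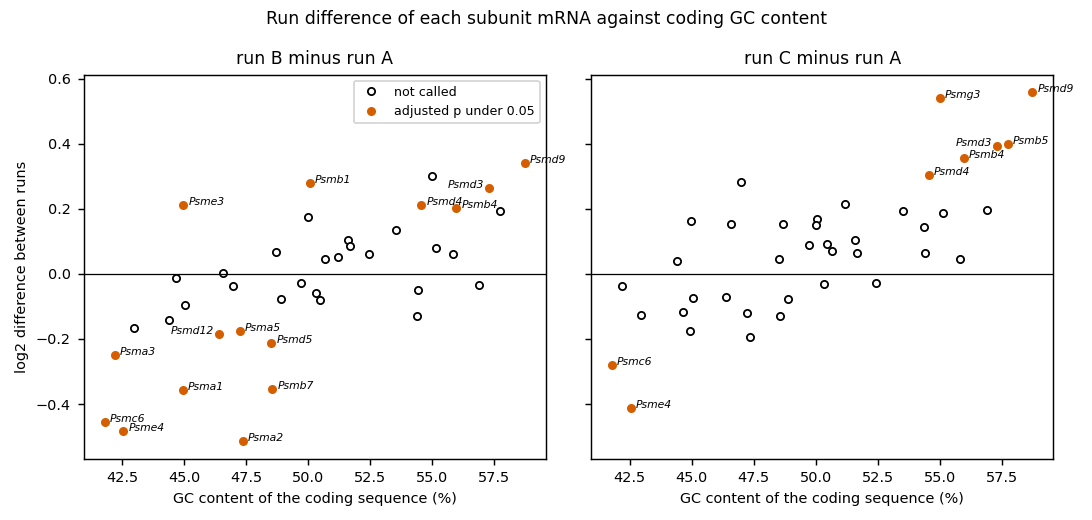
Log2 difference of each of the 40 mRNAs between runs B and A (left) and C and A (right) against the GC content of its coding sequence in percent; filled and named points passed an adjusted p of 0.05. The points rise to the right in both panels, from Psmc6 and Psme4 near 42% to Psmd9 at 58.7%.

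Pairs of subunits varied together to different extents across hearts. Over the 780 pairs of the 40 genes, the Pearson correlation of log2(RPKM + 0.5) over the 15 hearts had a median of 0.16 and ranged from -0.81 to 0.93. The median was 0.51 within the alpha ring, 0.40 within the beta ring, 0.25 among the ATPases and 0.23 among the other 19S subunits. The most alike pair was Psma1 and Psmc6 (0.93), then Psma1 and Psma2 (0.89), and the least alike Psmb1 and Psmc6 (-0.81). All 4 of these genes differed between runs B and A, Psmb1 in the opposite direction to the others, and the correlations are over hearts that share groups and runs. Within the beta ring, the correlation was 0.88 between Psmb4 and Psmb5 and 0.84 between Psmb5 and Psmb6. Pairs of different roles were as high, with 0.88 for Psmb7 and Psmd12, 0.85 for Psmd3 and Psmd9 and 0.85 for Psmc4 and Psmd3. Psmb4 and Psmb5 were both higher in run C than in run A, by 0.36 and 0.40 (log2).

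Partners of the proteasome were read from a list of 32 genes that help to assemble, supply or regulate it, of which 31 were tested. None was called at 12 h, 24 h or 72 h, 2 were called lower at 7 d against control, and 2 lower at 7 d than at 12 h. Of all 10557 genes tested, 439 were called lower at 7 d against control and 410 (3.88%) lower at 7 d than at 12 h. With Y-linked mRNA as a covariate, these numbers over all genes were 170 and 85. The partners were not tested as a set. Ecm29, listed as AI314180, tethers the 19S particle to the core, and it stood at 33.1, 30.0 and 29.8 RPKM in control hearts and 22.9, 19.8 and 17.2 RPKM at 7 d, a log2 change of -0.63 (SE 0.17, adjusted p = 0.035). Faf1, a cofactor of the unfolding enzyme p97, changed by -0.33 against control (adjusted p = 0.041) and by -0.30 against 12 h (adjusted p = 0.048). Uchl5, a deubiquitinase bound to the 19S particle, changed by -0.52 between 12 h and 7 d (adjusted p = 0.038). Each of these calls was lost with Y-linked mRNA as a covariate (adjusted p 0.23 to 0.70) and after leaving out single hearts: Ecm29 without any of the 3 control hearts or replicates 2 or 3 of 7 d (adjusted p up to 0.13), Faf1 against control without 9 of the 15 hearts (up to 0.17), Faf1 against 12 h without 12 of them (up to 0.19) and Uchl5 without 7 of them (up to 0.16).

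The transcription factor of proteasome genes, Nfe2l1, stood at 114, 140 and 143 RPKM in control hearts and at 107, 113 and 120 RPKM at 7 d (-0.21, 95% interval -0.50 to 0.08, adjusted p = 0.39). Its relative Nfe2l2, which answers to oxidative stress, changed by -0.15 (-0.38 to 0.09). Pomp, the chaperone that guides beta ring assembly, changed by -0.02 (-0.29 to 0.26), the ubiquitin receptor Adrm1 by -0.19 (-0.56 to 0.18) and the small 19S subunit Shfm1 by 0.10 (-0.36 to 0.56). None of these 5 was called in any comparison.

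The interferon-inducible beta subunits that replace the constitutive catalytic ones were expressed at a fraction of their level. Psmb8 stood at 13.1% to 42.5% of Psmb5, Psmb9 at 5.74% to 18.8% of Psmb6, and Psmb10 at 13.3% to 34.2% of Psmb7, and the highest values were those of replicates 1 or 2 of 12 h in each pair. In control hearts the shares were 20.7% to 27.5%, 10.1% to 13.55% and 17.5% to 26.5%. At 7 d they were 13.1% to 14.6%, 5.98% to 6.68% and 13.3% to 20.45%, so only those of Psmb10 overlapped. None of these 3 genes was called against control at 7 d. Psmb8 was lower at 7 d than at 12 h by 0.84 on the log2 scale (adjusted p = 0.045), a call lost without any of 13 of the 15 hearts (adjusted p up to 0.19).

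Promoter sequences were read for the members because their genes are known to share control by NRF1, which binds the antioxidant response element. RefSeq (GRCm38.p6) gave 300 bases, from 250 before to 50 after the start, for 34 of the 40. The core of the element, TGACNNNGC on either strand, was present in 6 of the 34 (17.6%), against 17.2% of the tested genes and 14.0% of all genes with a promoter. The letters CCAAT on either strand, a common promoter box, were present in 13 of the 34 (38.2%), against 43.4% and 41.1%. Neither share was far from that of other genes, and a match is a description of letters and not a binding site.

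The 6 members with the element core are shown because they include 2 catalytic subunits (Psmb5 and Psmb6), the ATPase with the largest run difference (Psmc6) and the member with the largest change at 7 d (Psme4). Capitals mark the 9 matching bases, each with up to 12 bases on either side, 5′ to 3′ on the strand of the gene. In Psmc6, Psmd12 and Psme4 the match is on the other strand.
Psmb5: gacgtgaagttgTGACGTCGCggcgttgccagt
Psmb6: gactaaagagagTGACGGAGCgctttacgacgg
Psmc6: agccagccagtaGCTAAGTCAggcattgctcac
Psmd12: tctGCTGTGTCAcatttgcccccc
Psmd9: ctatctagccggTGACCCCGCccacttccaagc
Psme4: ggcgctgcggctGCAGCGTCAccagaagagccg

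In GRCm38.p6 these stretches are chr14:54618022-54618054 on the minus strand for Psmb5 and, on the plus strand, chr11:70525336-70525368 for Psmb6, chr14:45329585-45329617 for Psmc6, chr11:107479278-107479301 for Psmd12, chr5:123228147-123228179 for Psmd9 and chr11:30771756-30771788 for Psme4. The first matching base lies 47 bases before the start in Psmb5, 9 in Psmb6, 31 in Psmd9 and 7 in Psme4, and 227 and 247 bases before it in Psmc6 and Psmd12. Between 12 h and 7 d these 6 genes changed by 0.32, 0.22, 0.00, 0.17, 0.33 and -0.59 in the order Psmb5, Psmb6, Psmc6, Psmd12, Psmd9 and Psme4, and none was called. The value of Psme4 rests on single hearts at 12 h, being -0.26 without replicate 1 (44.8 RPKM) and -0.84 without replicate 3 (20.01 RPKM), where it was called (adjusted p = 0.030).

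Psmd13, the member with the firmest call, held neither motif. The 250 bases before its start, chr7:140882144-140882393 on the plus strand of GRCm38.p6, are shown in lower case throughout because no searched motif fell in them.
Psmd13: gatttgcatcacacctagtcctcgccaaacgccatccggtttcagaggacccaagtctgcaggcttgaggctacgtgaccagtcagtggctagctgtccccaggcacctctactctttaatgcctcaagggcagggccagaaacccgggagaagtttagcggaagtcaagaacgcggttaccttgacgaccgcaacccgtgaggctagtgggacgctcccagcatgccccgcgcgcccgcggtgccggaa

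The 40 genes lie on 14 chromosomes in mm9, with 9 on chromosome 11, and few are neighbours. The closest pair is Psme1 and Psme2, the subunits of one activator, 5912 bases apart on chromosome 14. Their log2 changes at 7 d against control were -0.12 (95% interval -0.30 to 0.06) and -0.09 (-0.36 to 0.18). Exons of 10 of the 40 overlap an exon of another annotated gene, 9 of these on the opposite strand, Psmb7 with Nek6 and Psmd13 with Sirt3 among them.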

How the data were processed

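RNA-seq of poly(A)+ RNA (strand-specific read pairs, Genome Analyzer II) was analysed for 15 mouse ventricles. The authors mapped reads to mm9 with Bowtie and TopHat (versions not given in the sources used here) and deposited RPKM, in which uniquely mapping reads over constitutive coding sequence (RefSeq) were scaled to its length and to the library's mapped reads other than ribosomal and mitochondrial ones. Values carry 2 decimals, 10.8% are 0, and depth is unknown. No column of hearts was left unused.

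The 40 genes, the lists and the tests were chosen with earlier results of these data known. Genes averaging under 1 RPKM were dropped and log2(RPKM + 0.5) of the other 10557 was tested with limma 3.58.1 in R 4.3.3 (eBayes with trend), using all 15 hearts at once and Benjamini-Hochberg adjustment over all genes. Called means an adjusted p under 0.05. The 5 comparisons were each time against control and 7 d against 12 h. The fit was checked on simulated data. P-values rest on 3 animals a group. Named genes are those called, the highest, lowest and most changed at 7 d of each role, and fixed partners. Other genes named, among them Psmd6, Psmc6 and Psmb8, and those named for run, overlap or motifs were added after their values were seen.

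Alternatives were pseudocounts of 0.1 and 1, no filter or a mean of at least 5 RPKM, median-ratio, upper-quartile and quantile scaling, run and Y-linked mRNA as covariates, the compared groups alone, library weights, and leaving out each heart. Weights per gene and library were added after the data were seen. Positions are from GENCODE vM1 (mm9), promoters from RefSeq (GRCm38.p6).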

Additional observations from a re-analysis of the deposited data

Results flagged for a closer look

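The change against control differed between 12 h and 7 d in 2 of the 40 genes, as tested by the comparison of 7 d with 12 h in the limma fit over all genes. Both were called higher (5.0%, against 11.8% of all genes tested). Psmd13 was 0.46 higher (log2) at 7 d than at 12 h (adjusted p = 0.0022), with -0.25 against control at 12 h and 0.20 at 7 d, and all 3 hearts at 7 d above all 3 at 12 h. Psmb2 was 0.30 higher (adjusted p = 0.017), with -0.15 at 12 h and 0.15 at 7 d, also without overlap. With Y-linked mRNA as a covariate both calls were lost (limma adjusted p = 0.064 for Psmd13 and 0.20 for Psmb2). Of all 10557 genes, 158 were then called higher, against 1241 in the main fit. The Psmb2 call was also lost with each of the 3 other scalings and with only the 12 h and 7 d hearts in the fit. Leaving out replicate 3 of 12 h or replicate 2 of 7 d lost it as well. Both comparisons with control share the same 3 control hearts. Groups of 3 hearts were not tested for single outlying values. Weights fitted to the hearts over all genes ran from 0.21 (replicate 3 of 72 h) and 0.22 (replicate 1 of 12 h) to 13.2 (replicate 2 of 7 d), a low weight standing for larger deviations from the group, but the estimation of these weights stopped before it converged.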

How the results depend on the processing

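No paired analysis was possible because the labels name animals and not shared replicate numbers. Against control at 24 h, no member was called under any of the 13 alternatives or the 15 fits without 1 heart. Elsewhere counts are of members called unless partners are named, the median is the median log2 change of the 40, and the cause of a change was not tested. Without the filter 1 partner was called between 12 h and 7 d. With median-ratio scaling the median was -0.018 for 12 h, 0.049 for 24 h, 0.074 for 72 h and -0.022 for 7 d against 12 h, 1 was higher at 72 h (Psmd11), 1 lower at 7 d (Psmf1), and 1 higher (Psmd13) and 2 lower (Psme1, Psmf1) at 7 d than at 12 h. Of all 10548 genes tested there, 61 were higher at 72 h, 584 lower at 7 d, and 783 higher and 745 lower against 12 h. With upper-quartile scaling these medians were -0.020, 0.042, 0.058 and -0.048, and -0.086 at 7 d, with 2 lower at 7 d, 1 higher and 2 lower against 12 h, and 4 partners called there. Of all 10555 genes tested, 693 were lower at 7 d, and 709 were higher and 843 lower against 12 h. With quantile scaling the medians were -0.058 for 12 h, -0.0087 for 24 h, -0.093 for 7 d and -0.044 against 12 h, with 3 lower at 7 d, and 1 higher and 2 lower against 12 h. Of all 10557 genes, 640 were lower at 7 d, and 741 were higher and 782 lower against 12 h. Psmb2 at 24 h changed sign with median-ratio (0.036) and upper-quartile scaling (0.029). Psmd13 at 72 h did so with median-ratio scaling (0.0078) and in the fit with run and Y-linked mRNA as terms (0.024), where Psmb2 at 72 h was -0.030.

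With run as a covariate 1 was lower at 12 h (Psmd13), 1 at 72 h (Psmd10), 3 at 7 d (Psmd6, Psme4, Psmf1) and 1 at 7 d against 12 h (Psme4), 3 partners were called at 12 h, and the median was -0.077 at 72 h, -0.11 at 7 d and 0.0045 against 12 h. Of all 10557 genes, 655 were lower at 12 h, 363 at 72 h, 796 at 7 d and 497 at 7 d against 12 h. With Y-linked mRNA as a covariate, 0 were higher between 12 h and 7 d and 0 partners were called there or at 7 d. Of all 10557 genes, 158 were higher and 85 lower against 12 h in that fit, and 240 and 170 at 7 d. With run and Y-linked mRNA together 1 was lower and 1 partner called at 12 h, 0 partners at 7 d, and 0 higher and 0 partners against 12 h, with medians of -0.16 at 7 d and -0.049 against 12 h. In all genes this fit had 359 lower at 12 h, 69 higher and 86 lower at 7 d, and 34 and 39 against 12 h. With only the compared groups 1 was lower and 1 partner called at 7 d, and 1 was higher and 0 partners called against 12 h. Of all 10557 genes, 498 were then lower at 7 d and 559 higher against 12 h. With library weights, whose estimation did not converge, the higher and lower calls were 1 and 6 at 12 h, 7 and 13 at 72 h, 4 and 10 at 7 d and 16 and 5 against 12 h, with 4, 14, 11 and 12 partners and a median of 0.048 against 12 h. Of all 10557 genes, 358 and 1650 were called at 12 h, 1198 and 4015 at 72 h, 2553 and 1839 at 7 d, and 4704 and 1921 against 12 h. With weights per gene and library the members called were 1 and 4, 6 and 10, 3 and 6, and 10 and 3, with 3, 13, 9 and 7 partners. The calls in all genes were then 219 and 1136, 856 and 3099, 1926 and 1391, and 3766 and 1309.

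Leaving out 1 heart gave 0 to 2 lower at 72 h (2 without replicate 3 of 72 h), 0 to 1 lower at 7 d, and 1 to 3 higher and 0 to 1 lower between 12 h and 7 d, where the median ran from 0.043 to 0.098. In all genes, 214 were lower at 72 h without replicate 3 of 72 h. Lower genes at 7 d ran from 219 to 531, and between 12 h and 7 d 604 to 1814 were higher and 220 to 512 lower. Partners called ran from 0 to 1 at 72 h, 0 to 2 at 7 d and 0 to 3 between 12 h and 7 d.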

Other observations

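Genes that belong to the proteasome but are listed under older symbols were looked at after their values were seen. Psmg1, which pairs with Psmg2 to build the alpha ring and is listed as Dscr2, stood at 18.3, 17.9 and 18.6 RPKM in control hearts, 17.7, 18.2 and 18.0 RPKM at 12 h, 19.5, 16.4 and 17.4 RPKM at 24 h, 14.9, 16.0 and 15.4 RPKM at 72 h and 12.9, 13.2 and 11.3 RPKM at 7 d. All 72 h and 7 d hearts lay below all control hearts. The log2 change was -0.54 at 7 d against control (SE 0.09, limma adjusted p = 0.0023) and -0.51 against 12 h (adjusted p = 0.0025). Both calls held after leaving out any 1 heart (adjusted p up to 0.015 and 0.017) and with run as a covariate, and within run A the heart at 7 d was 0.48 below the control heart. The call against control was lost with run and Y-linked mRNA together as covariates (-0.47, adjusted p = 0.18), and that against 12 h with Y-linked mRNA alone (-0.43, adjusted p = 0.14) or with run (adjusted p = 0.38).

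Psmg2, listed as Tnfsf5ip1, stood at 21.5 to 22.4 RPKM at 12 h and 17.3 to 19.2 RPKM at 7 d, a log2 change of -0.27 (adjusted p = 0.049) that was lost without any of 13 of the 15 hearts. Psmb11, the thymus subunit listed as 5830406J20Rik, was listed at 0 in every heart except 1 at 24 h, with 0.03 RPKM.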
